A study of Mus musculus with 10 samples.

Results

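The dermal condensate is a cluster of specialised fibroblasts that forms under each hair placode, and it matures into the dermal papilla at the base of the follicle. In back skin of mouse embryos, dissociated and sequenced cell by cell, these cells were chosen by their own counts: they were kept cells with at least 1 unique molecular identifier (UMI) of Sox2 and at least 1 of Sox18 or Foxd1. They were also selected on having at least 20 UMIs of Col1a1 and Col3a1 together, under 10 of Krt5 and Krt14 together, and no UMI of Sox10, Cdh5 or Pecam1. The rule found 1302 cells, called condensate cells here, among 55482 kept cells of 10 libraries. Of the kept cells, 42164 stayed under the keratin limit and are called non-epithelial. The 31093 cells that met the collagen, keratin, Sox10, Cdh5 and Pecam1 limits without being condensate cells are called other dermal cells.

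Condensate cells are induced by signals of the placode epithelium, among them Shh, Fgf20 and WNT ligands, and they answer with hedgehog target genes and WNT target genes. They leave the cell cycle, gather by directed migration and send signals back to the epithelium through BMPs, FGFs and R-spondins. Sox2, Sox18 and Foxd1 are transcription factors of these cells. In GRCm38, Sox2 lies on chromosome 3 (34650405 to 34652461, plus strand), Sox18 on chromosome 2 (181669836 to 181671640, minus strand) and Foxd1 on chromosome 13 (98354242 to 98359305, plus strand).

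Embryos labelled MOFfl/fl/K14Cre (MOF cKO) were bred to lose Kat8, which encodes the histone H4K16 acetyltransferase MOF. Embryos labelled QPCfl/fl/K14Cre (QPC cKO) were bred to lose Uqcrq, a subunit of respiratory complex III. Krt14-Cre is an epithelial driver. Controls are labelled only as such, and the study describes littermates of both sexes on a mixed C57Bl/6J and CD-1 background. At E15.5 there were 2 control libraries (replicates 2 and 3) and 2 MOF cKO libraries (replicates 5 and 6), at E16.5 2 and 2 (replicates 1 and 2 each), and at E17.5 1 control and 1 QPC cKO library. The study describes MOF cKO replicate 6 as mosaic for the loss of H4K16ac in its epithelium. With 2 samples per group, p-values measure only the spread between these samples, which the gene tests estimate jointly over genes.

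Libraries held from 13609345 to 203392303 UMIs, and condensate cells had a median of 9140 to 13543 UMIs per cell in the 8 libraries that had any. Kat8 in keratin-positive cells (at least 10 UMIs of Krt5 and Krt14) was at 13.0 and 14 CPM (UMIs of the gene relative to all UMIs of the summed cells) in the E15.5 controls and at 13.0 and 10.0 CPM in MOF cKO, and at E16.5 at 17.6 and 14.8 against 8.66 and 3.75 CPM. Kat8 was also lower in MOF cKO without overlap outside the epithelium. In the E15.5 condensate cells it was at 17.3 and 12.3 against 9.84 and 7.88 CPM, which did not pass edgeR's test (adjusted p = 0.724). In the other dermal cells it was at 8.83 and 9.57 against 6.78 and 6.09 CPM at E15.5, and at 9.67 and 8.27 against 2.46 and 5.59 CPM at E16.5. The exons removed from Kat8 are not given in the sources used here, so these 3' end counts do not check the deletion. Uqcrq in keratin-positive cells was at 106 CPM in the E17.5 control library, against 43.9 CPM in QPC cKO. The labels name another version of the library protocol for each stage, so comparisons were made within a stage. No condensate cell barcode was shared between any of the 45 pairs of libraries, in which 0 to 36 kept barcodes were shared.

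Markers other than those in the rule set the condensate cells apart from the other dermal cells. Since the rule chose the cells within the same libraries, these values are a description with no test. Of 39 genes in a list of condensate and papilla genes, 37 had at least 100 UMIs in condensate cells. Of these, 23 were higher in the condensate cells in all 8 libraries that had any and 2 were lower, beside 17% and 11.4% of all 9947 genes with as many UMIs. Also 23 of the 37 were over 2-fold higher in each of the 6 libraries of E15.5 and E17.5, beside 4.04% of those 9947 genes. Twist2 and Crabp1 were lower in all 8. At equal depth (5000 UMIs per cell), condensate cells had a median of 13 to 19 of the 39 genes detected, and other dermal cells 6 to 9. Markers of other cell types summed to at most 12.8 CPM in the condensate cells for Schwann cells and 18.4 CPM for Merkel cells, both at 0 in some libraries, and to 78.5 to 164 CPM for pericytes. Those of epithelium ran from 68.0 to 260 CPM at E15.5 and reached 908 CPM at E16.5. Summed endothelial markers were higher in the condensate cells than in the other dermal cells in all 8 libraries. At E15.5 they were at 82.5 to 103 CPM, against at most 22.5 CPM. In the E16.5 controls they were at 40.3 and 57.4 against 26.1 and 20.7 CPM. At E17.5 they were at 103 CPM in control and 115 CPM in QPC cKO, against 29.6 and 32.4 CPM. The source of this difference was not tested.

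**Figure D1:**
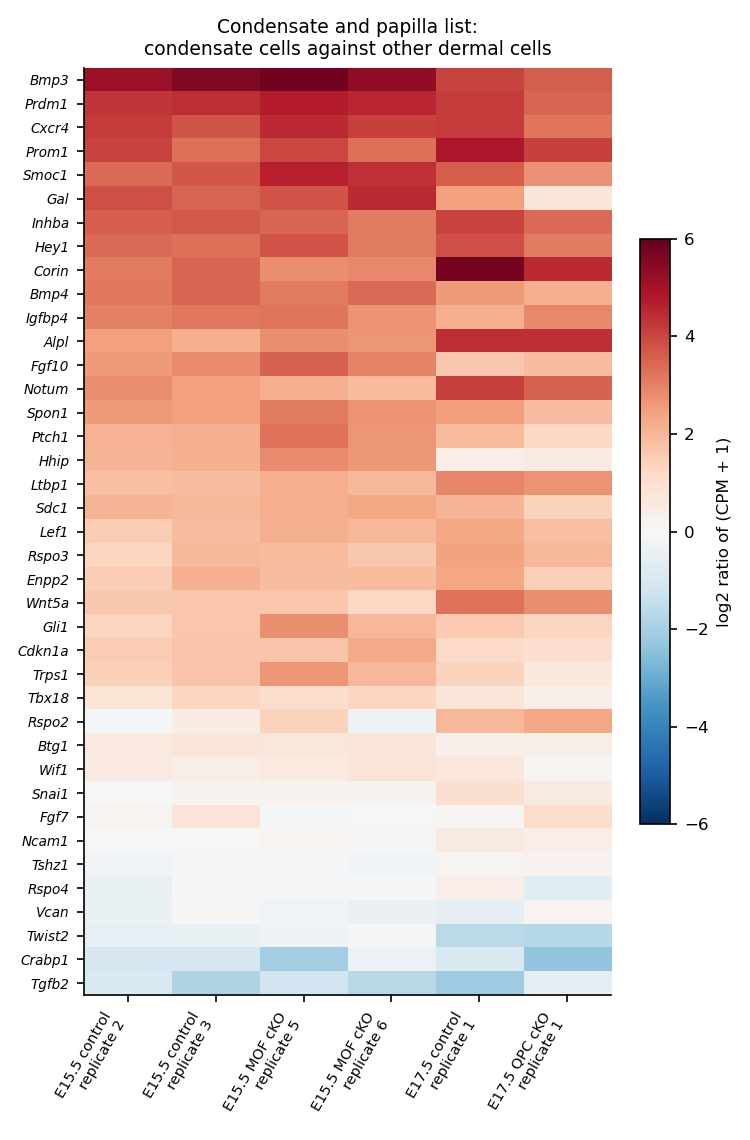
Ratio of condensate cells to other dermal cells for the 39 genes of the condensate and papilla list (rows) in the 6 libraries of E15.5 and E17.5 (columns), as log2 of CPM plus 1, ordered by the median. Bmp3, Prdm1 and Cxcr4 lead the list in red and Twist2, Crabp1 and Tgfb2 end it in blue.

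Some of the signals that the condensate sends were higher there. Of 30 genes of the BMP and TGF-beta list, 27 had at least 100 UMIs. Of these, 12 were higher in the condensate cells in all 8 libraries and 1 was lower (median log2 ratio 0.61), and of 14 such FGF genes (16 listed) 6 and 1 (0.60), beside the 17% and 11.4% of all genes and their median of 0.17. Bmp3, a BMP family ligand, was at 265 and 311 CPM in the E15.5 control condensate cells against 6.27 and 5.55 CPM in the other dermal cells, and its log2 ratio over the 6 libraries ran from 3.62 to 5.78. Bmp4, which acts on the hair placode, was at 197 and 251 against 21.3 and 21.4 CPM (log2 ratio 2.17 to 3.49). Fgf10, an FGF ligand of mesenchyme, was at 89.6 and 126 against 14.6 and 17.1 CPM (1.61 to 3.56). Fgf7 stood apart from these, with 5.75 and 8.07 against 4.98 and 4.30 CPM. The activin subunit Inhba (3.12 to 4.06) and the R-spondin Rspo3 (1.28 to 2.39) were higher in all 6 libraries.

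Among genes of signal reception and response, 5 of 15 hedgehog genes with at least 100 UMIs (17 listed) were higher in all 8 libraries and 3 lower (median log2 ratio 0.46). Of 29 such WNT genes (34 listed) 13 were higher and 2 lower (0.83), again beside 17% and 11.4% of all genes. Ptch1 (chromosome 13, 63508328 to 63573598, minus strand), the hedgehog receptor and a target of its own pathway, was at 558 and 562 CPM against 131 and 126 CPM in the E15.5 controls (log2 ratio over 6 libraries 1.23 to 3.26). The hedgehog effector Gli1 was at 65.2 and 75.7 against 26.4 and 22.9 CPM (1.27 to 2.79). The hedgehog co-receptors Gas1, Boc and Cdon were lower in the condensate cells in all 8 libraries. Lef1, a transcription factor of the WNT pathway, had log2 ratios from 1.54 to 2.31. Cxcr4, the chemokine receptor linked to migration, was at 48.4 and 45.0 against 1.68 and 2.38 CPM (3.19 to 4.50), while its ligand Cxcl12 was lower in the condensate cells. Prdm1 (Blimp1), a transcription factor of the condensate, had log2 ratios from 3.48 to 4.71, the Notch target Hey1 from 3.11 to 3.85, and the zinc-finger factor Trps1 from 0.62 to 2.67. Cdkn1a (p21), an inhibitor of the cell cycle, ranged from 1.01 to 2.26, in a list of 13 such inhibitors. Of the 11 with at least 100 UMIs, 3 were higher in all 8 libraries and 1 lower (median 0.30). The matrix genes Dpt, Dcn, Lum and Col1a2 were lower.

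The thresholds cut through a continuum. Exactly 1 Sox2 UMI was found in 446 of the 1302 cells (34.3%), 2 in 261 and 3 or more in 595. Both Sox18 and Foxd1 were detected in 917 (70.4%), Foxd1 alone in 225 and Sox18 alone in 160. Just outside, 100 cells had Sox2 without a second marker, and 1012 had both Sox18 and Foxd1 without Sox2. A collagen sum of 20 to 39 UMIs was found in 563 members, and 365 further cells failed only this limit, 308 of them with 10 to 19 UMIs. Keratin sums of 5 to 9 UMIs were found in 273 members, and 105 cells failed only the keratin limit. Sox2 was also detected in 0.794% of 3150 immune cells (median 14410 UMIs) and in 0.792% of 10359 strongly keratin-positive cells (median 20038 UMIs), against 4.33% of the dermal cells (median 12254 UMIs), so a single Sox2 UMI alone is weak evidence for a cell.

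Within the E15.5 control condensate cells, expression differed with the number of Sox2 UMIs (a description, since Sox2 chose them). The 133 cells with 3 or more had 247 CPM of Prdm1 and 310 of Bmp4, and the 160 cells with 1 had 128 and 174 CPM. Their median depths were 11203 and 10164 UMIs. The proliferation gene Mki67 went the other way, with 176 CPM in the first and 247 in the second. The 250 dermal cells with both Sox18 and Foxd1 but no Sox2 had Ptch1 at 563 CPM, near the 560 CPM of the condensate cells, but Prdm1 at 50.8 and Mki67 at 357 CPM. The 118 cells that failed only the collagen limit had the highest Prdm1 (425 CPM) and Bmp4 (455 CPM) of these groups and the lowest Mki67 (10.2 CPM), and they had a median of 7073 UMIs.

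Condensate cells were 3.02% (174 of 5761) and 3.38% (210 of 6221) of the non-epithelial cells in the E15.5 controls. In MOF cKO they were 1.05% (96 of 9118) in replicate 5 and 2.90% (261 of 9005) in replicate 6. Both MOF cKO shares lay below both controls, replicate 5 by a wide margin and replicate 6 by a narrow one. The means were 3.20% ± 0.25 and 1.98% ± 1.3 (SD, n = 2), a difference of -1.22 percentage points. The exact two-sided permutation test gave p = 0.333, the smallest value that 6 arrangements allow. Without MOF cKO replicate 5 the difference was -0.30 points, and without replicate 6 -2.15. The groups overlapped once at least 2 Sox2 UMIs, both second markers or 40 collagen UMIs were required, cells were thinned to equal depth, doublets were left out or all kept cells were the denominator.

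**Figure D2:**
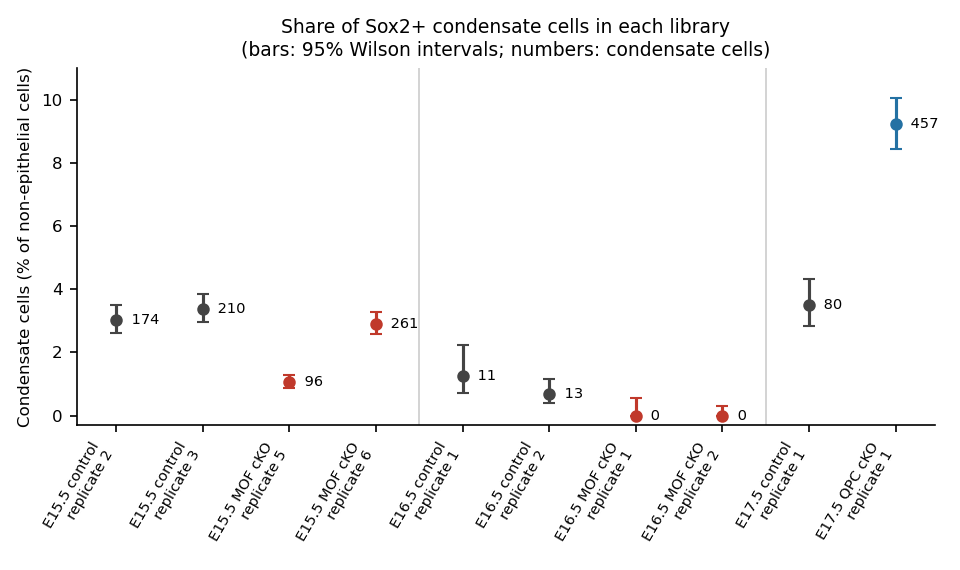
Condensate cells as a percentage of non-epithelial cells in each of the 10 libraries (y axis), with 95% Wilson intervals and the number of condensate cells beside each point. Both E16.5 MOF cKO libraries are at 0, and the E17.5 QPC cKO library, at 9.22%, is above the E17.5 control at 3.5%.

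At E16.5, the controls had 11 of 874 (1.26%) and 13 of 1935 (0.672%) condensate cells, and MOF cKO had 0 of 686 and 0 of 1324. In MOF cKO replicate 2, 2 further cells failed only the Sox10, Cdh5 and Pecam1 limit, as did 2 in control replicate 1. A count of 0 allows a share of up to 0.437% in MOF cKO replicate 1 and 0.227% in replicate 2, limits that do not cover the spread between embryos. The E16.5 difference was -0.97 points (exact permutation p = 0.333, again the smallest possible). It was smaller with at least 2 Sox2 UMIs (-0.42), both second markers (-0.45), 40 collagen UMIs (-0.22) or equal depth (-0.63), with MOF cKO still at 0. Control replicate 2 then had 0.155%, 0.103%, 0.207% and 0.250%, under the limit of 0.437% to 0.456% that a count of 0 allows in MOF cKO replicate 1 alone. Over both stages it was -1.09 points, with p = 0.0556 by exact permutation within stage, the smallest of 36 arrangements (-0.63 without E15.5 MOF cKO replicate 5). Without the collagen limit, a definition chosen after the data were seen, the difference was -1.82 points at E15.5, -1.95 at E16.5 and -1.88 over both stages. Over both stages it was smaller, at -0.42 to -1.05 points, with exact permutation p from 0.111 to 0.222, under some definitions. These required at least 2 Sox2 UMIs, both second markers or 40 collagen UMIs, or used equal depth, no doublets or all kept cells as denominator. With keratin under 5 UMIs it was -1.18 and under 5% mitochondrial UMIs -1.30 points, both with p = 0.0556 by the same permutation. Without Sox2 in the definition it was -1.32 points for both Sox18 and Foxd1 (p = 0.111), -0.84 for Prdm1 and Bmp4 (p = 0.278) and -10.6 for at least 8 condensate genes (p = 0.167), by the same exact permutation. Sox2 itself, which the rule uses, was detected in 15 of 654 and 25 of 1466 dermal cells of the controls and in 1 of 471 and 2 of 997 of MOF cKO.

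Definitions without Sox2 gave a less clear picture. At E15.5, cells with both Sox18 and Foxd1 were 3.99% and 4.31% of the non-epithelial cells in control, against 1.43% and 3.63% in MOF cKO, without overlap. Cells with both Prdm1 and Bmp4 were 2.60% and 3.71% against 1.33% and 3.01%, and dermal cells with at least 8 of the 39 condensate and papilla genes at equal depth 42.3% and 42.8% against 34.0% and 43.6%, both with overlap. At E16.5, cells with both Sox18 and Foxd1 were 2.06% and 0.258% of the non-epithelial cells in control, against 0.292% and 0% in MOF cKO, so the groups overlapped. Cells with both Prdm1 and Bmp4 were between 1.40% and 2.40% in the controls and between 0.378% and 2.04% in MOF cKO, again with overlap. Dermal cells with at least 8 of the 39 genes were 42.4% and 31.8% in control and 18.4% and 21.2% in MOF cKO, without overlap, but 53.3% and 40.5% of the other dermal cells of the controls also met this limit. All 3 definitions were chosen after the data were seen. Intervals and limits for shares cover counting error only.

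Few genes passed the test between E15.5 control and MOF cKO condensate cells. UMI counts were summed over the condensate cells of each library and tested with edgeR's quasi-likelihood test, calling genes at a Benjamini-Hochberg adjusted p under 0.05. Of 10550 genes, 7 were called (0.0664%), 1 higher and 6 lower in MOF cKO, while 701 passed 0.05 before adjustment and DESeq2 called 6. In simulated data of this depth the test found 66.5% of 200 genes changed 2-fold beside 21 false calls, so some of the 7 calls may be false. Sums over cells cannot tell less RNA per cell from fewer cells of one kind within the set.

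None of the tested genes of the signalling lists was called in this fit, beside 0.0664% of all 10550 genes. For the condensate and papilla list this was 0 of 37 (median log2 fold change 0.10, all genes 0.004), for the hedgehog pathway 0 of 15 (0.15), the BMP and TGF-beta pathway 0 of 27 (-0.02), the WNT pathway 0 of 29 (0.01) and the FGF pathway 0 of 14 (0.01). These counts of 0 are near the share over all genes and say little about the lists. At an unadjusted edgeR p under 0.05 the lists had 5, 3, 5, 5 and 2 genes, beside 701 of all 10550 genes. Prdm1 was at 160 and 194 CPM in control and at 187 and 173 CPM in MOF cKO. Bmp4 was at 197 and 251 CPM in control, and at 145 and 249 CPM in MOF cKO. Fgf10 was at 89.6 and 126 CPM, then 122 and 141 CPM. The groups overlapped in each of these genes. Ptch1 was at 558 and 562 CPM in control and at 612 and 655 CPM in MOF cKO (log2 fold change 0.13, SE 0.09, adjusted p = 0.857), without overlap.

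Of the 6 genes that fell, 4 were globins, carried in red blood cells. Hbb-bs was at 13222 and 12599 CPM in control and at 4708 and 4717 CPM in MOF cKO (log2 fold change -1.50, SE 0.07), and Hba-a1, Hba-a2 and Hbb-bt fell by 1.60, 1.51 and 1.32 on the log2 scale. From 87.9% to 95.5% of these haemoglobin UMIs came from 10 cells per library, and 8, 7, 1 and 5 condensate cells held over 1000 of them. The summed erythroid markers were at 24148 and 24809 against 8971 and 9106 CPM in the condensate cells, and at 26015 and 19747 against 32015 and 15691 CPM in the other dermal cells. The mast cell tryptase Tpsb2 was at 18.7 and 16.53 CPM in control and at 2.68 and 1.97 CPM in MOF cKO. The summed immune markers were at 179 and 28.1 against 71.5 and 14.8 CPM. Of 8 tested epithelial markers 0 were higher in MOF cKO (median log2 fold change -1.27). None was called, beside 0.0664% of all 10550 genes, and 5 had an unadjusted edgeR p under 0.05, beside 701 of the 10550. The summed epithelial markers were at 175 and 260 against 68.0 and 125 CPM, and in the other dermal cells at 171 and 267 against 98.7 and 114 CPM. The part of such cells in these calls was not tested. Hbb-bs was not past the threshold without doublets (-1.18), and the other globins were not among cells with at least 2 Sox2 UMIs. Tpsb2 had a log2 fold change of -3.02, and of -3.03 by DESeq2, where it was not past the threshold (adjusted p = 0.0727).

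Csrp2 and Rtn1 were the other called genes. Csrp2, a LIM domain protein bound to the actin cytoskeleton (chromosome 10, 110919789 to 110939622, plus strand), was at 562 and 604 CPM in control and at 336 and 397 CPM in MOF cKO. It fell by 0.71 on the log2 scale (SE 0.11, edgeR adjusted p = 0.0216), and the groups lay well apart. It was no longer past the threshold among cells with at least 2 Sox2 UMIs (-0.62). Rtn1, a reticulon of the endoplasmic reticulum, rose from 12 and 15.4 CPM to 32.2 and 54.2 CPM (log2 fold change 1.69, SE 0.27, adjusted p = 0.0379). Without MOF cKO replicate 6 its fold change was 1.15 and not past the threshold, and by DESeq2 it was 1.64 (adjusted p = 0.111). By p, Rgs5 (19.2 and 13.8 against 0 and 2.63 CPM), Stfa3 (11.5 and 17.3 against 2.68 and 3.28 CPM), Ifrd1 (102 and 114 against 73.3 and 56.2 CPM) and Nrp1 (99.2 and 96.9 against 191 and 149 CPM) came next and did not pass. A fit of both stages, which adds only the 2 E16.5 controls, called 4 of 10111 genes (0.0396%): Rtn1, Tpsb2, Rgs5 and the matrix gene Postn (log2 fold change 1.28, SE 0.20). Csrp2 was not called there (-0.71, edgeR adjusted p = 0.265).

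The MOF cKO effect in the condensate cells was then compared with that in the other dermal cells of the same libraries. This test of the difference called 56 of 15377 genes (0.364%), 29 with the higher and 27 with the lower effect in the condensate cells. In simulated data it found 61.5% of 200 genes changed 2-fold beside 33 false calls. Of the 56, Foxd1 (1.34) and Sox18 (0.84) are in the rule that chose the cells, so their values are a description only. The rule holds the condensate cells to its markers in both groups, but not the other dermal cells. For genes that go with these markers, the test cannot tell an effect in the cells from this choice of cells. Among the listed genes it called 4 of 38 of the condensate and papilla list, 2 of 16 of the hedgehog list (both also in the first), 1 of 32 of the WNT list, 2 of 31 matrix genes (Postn and Col23a1, both higher), and none of 30 BMP and TGF-beta or 16 FGF genes.

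Ptch1 shows the pattern of the 4 condensate genes. In the condensate cells Ptch1 kept to the values above. In the other dermal cells it was at 131 and 126 CPM in control and at 62.8 and 103 CPM in MOF cKO (difference in log2 effect 0.83, SE 0.12, edgeR adjusted p = 6.65e-09). Its log2 ratios of condensate to other dermal cells were 2.08 and 2.14 in control, and 3.26 and 2.66 in MOF cKO replicates 5 and 6. The SE and p draw on the spread of all genes and not on these ratios alone. Gli1 was at 65.2 and 75.7 against 69.7 and 85.4 CPM in the condensate cells and at 26.4 and 22.9 against 9.23 and 20.5 CPM in the others (0.83, SE 0.17). Trps1 was at 670 and 640 against 733 and 703 CPM, and in the others at 251 and 197 against 115 and 174 CPM (0.76, SE 0.12). Smoc1, a secreted protein that binds BMP signalling components, was at 89.2 and 122 against 144 and 139 CPM, and in the others at 7.48 and 8.45 against 4.77 and 5.80 CPM (0.99, SE 0.16). In each of the 4 genes the levels were lower in MOF cKO among the other dermal cells and not among the condensate cells. The other dermal cells include cells with condensate genes but no Sox2: cells with both Sox18 and Foxd1 numbered 118 and 132 in control against 69 and 134 in MOF cKO, and Foxd1 was detected in 15.3% and 14.2% against 6.13% and 10.4% of the dermal cells. Their part in the difference was not tested.

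**Figure D3:**
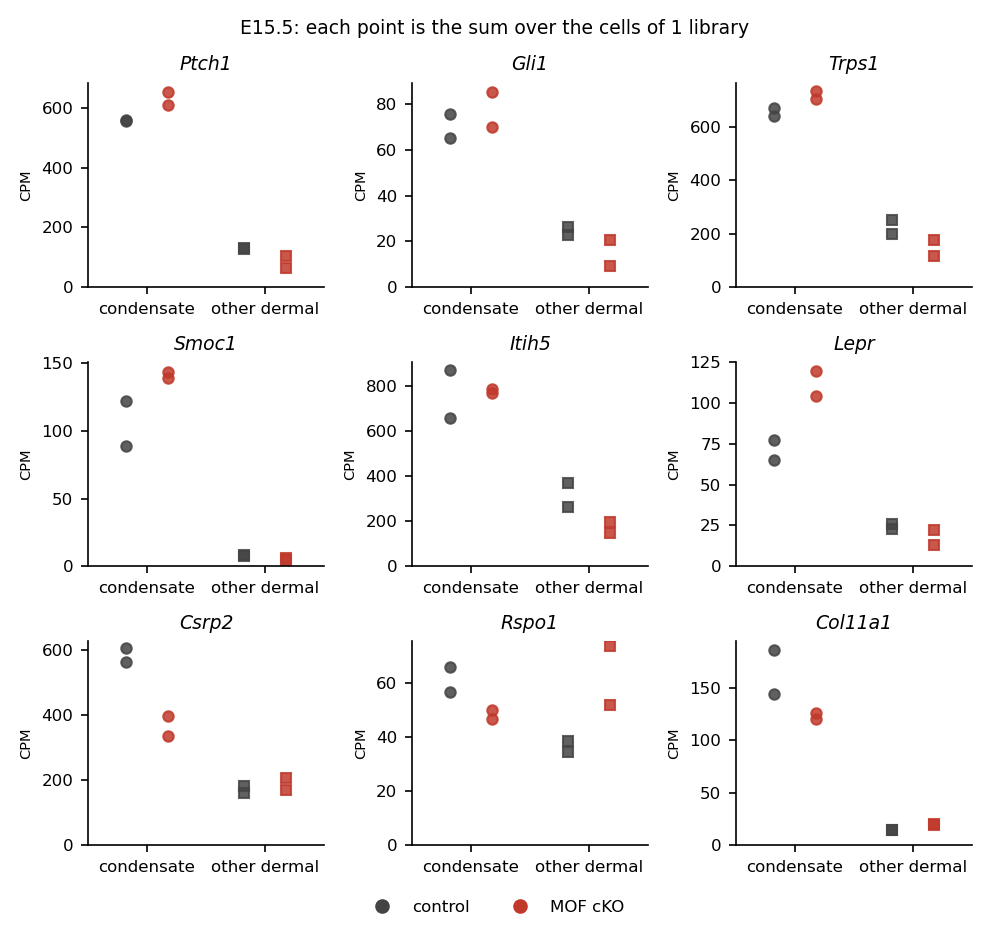
CPM at E15.5 of 9 genes in condensate cells (circles) and other dermal cells (squares), with 1 point per library, control in grey and MOF cKO in red. Ptch1, Gli1, Trps1, Smoc1, Itih5 and Lepr are lower in red only among the squares, Csrp2 only among the circles, and Rspo1 is lower in red among the circles and higher among the squares.

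Other genes with a higher effect in the condensate cells included Itih5, a hyaluronan-binding matrix protein, with 871 and 658 against 770 and 787 CPM there and 367 and 264 against 146 and 195 CPM in the others (0.91, SE 0.12). The leptin receptor Lepr was at 77.2 and 65.3 against 105 and 120 CPM in the condensate cells and at 26.1 and 23.1 against 12.9 and 22.0 CPM in the others (1.14, SE 0.16). Nppc, Fgd5, Aqp1, Pdlim3, Slc26a7 and Adamts18 had the same direction, with differences of 0.90 to 2.14.

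In the opposite direction, the WNT agonist Rspo1 was at 56.6 and 65.7 against 50.1 and 46.6 CPM in the condensate cells and at 34.6 and 38.6 against 73.4 and 51.9 CPM in the others (-1.05, SE 0.17). Csrp2 in the other dermal cells was at 160 and 183 against 207 and 170 CPM, so its lower level was seen in the condensate cells and the groups overlapped in the others (-0.79, SE 0.12). The collagen gene Col11a1 was at 144 and 186 against 126 and 120 CPM in the condensate cells and at 14.8 and 14.2 against 20.6 and 19.2 CPM in the others (-0.88, SE 0.14). The pericyte marker Rgs5, with few UMIs in the condensate cells, had a difference of -3.46 (SE 0.40). Markers of other cell types lay on both sides. None of 9 immune, 8 pericyte and 7 erythroid markers had a higher effect in the condensate cells, with medians of -2.14, -1.13 and -1.42, and the medians were -1.44 for 9 myocyte and -0.21 for 6 endothelial markers. All 5 tested Schwann markers (1.35) and all 3 tested Merkel markers (4.50) had a higher effect, with Krt8 called (6.26). Krt8 was at 0.479 and 0 CPM in the control condensate cells and at 0 and 7.22 CPM in MOF cKO, so replicate 6 alone carries this call, near the floor. In MOF cKO replicates 5 and 6 the summed Merkel markers were at 1.79 and 18.4 CPM and the Schwann markers at 2.68 and 11.5 CPM. The medians of 10 epithelial and 5 melanocyte markers were 0.01 and 0.02. Genes known from blood and muscle cells were among the 27, such as Tpsb2, Ctss, Cd14, Alas2 and Des, which were picked out after their values were seen. In the condensate cells Ctss was at 6.71 and 0 CPM in control and at 0 in MOF cKO. Cd14 was at 12.9 and 0.384 against 0 and 0.328 CPM. Control replicate 2 alone thus carries these calls, near the floor. Tpsb2, Alas2 and Des were higher in both controls than in both MOF cKO libraries. The part of blood and muscle cells in the calls was not tested. Gfra1, Nes, Myl9, Zfhx4, Apod and Mme followed with differences between -0.79 and -0.60. The count of 56 moved to 98 without control replicate 3 (22 higher and 76 lower), to 121 without MOF cKO replicate 5 (76 and 45) and to 149 without MOF cKO replicate 6 (58 and 91), so the balance of directions was not stable.

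The cell cycle lists took a smaller share of the UMIs in condensate cells than in other dermal cells. At E15.5 it was 0.684% and 0.641% in control condensate cells and 0.598% and 0.593% in MOF cKO, without overlap (0.663% ± 0.030 against 0.595% ± 0.004, SD, n = 2). The groups were apart in the G2/M part (0.519% and 0.472% against 0.417% and 0.448%) and overlapped in the S phase part (0.165% and 0.169% against 0.181% and 0.144%). The difference of -0.07 points had an exact permutation p of 0.333, the smallest possible with 6 arrangements. In the other dermal cells the means were 0.934% and 0.925%. None of 37 S phase and 50 G2/M genes was called in the condensate cells, with medians of -0.11 and -0.22 on the log2 scale. Beside 0.0664% of all 10550 genes called, this says little about the lists. At an unadjusted edgeR p under 0.05 there were 2 S phase and 13 G2/M genes, beside 701 of all 10550. Positive fold changes were found in 10 and 8 of them, beside 5327 of the 10550.

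With no condensate cells in the E16.5 MOF cKO libraries, none of the fits over condensate cells could be made there, and condensate genes were followed in the sum of all dermal cells. Condensate cells were 1.68% and 0.887% of these cells in the controls, so the sums mostly measure other fibroblasts. The edgeR test called 311 of 12471 genes lower (2.49%) and 353 higher (2.83%) in MOF cKO. With plain library sizes these were 513 and 317, with the median of all genes at -0.11. Of the 36 tested condensate and papilla genes, 9 fell and 2 rose, with a median log2 fold change of -0.50, and of 15 hedgehog genes 1 fell, Ptch1, with a list median of 0.08.

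The hedgehog target Ptch1 and genes of the WNT list were among those that fell. Ptch1 was at 110 and 68.8 CPM in control and at 22.5 and 23.5 CPM in MOF cKO (log2 fold change -1.81, SE 0.19, adjusted p = 0.0181). Lef1 was at 71.3 and 48.8 against 19.4 and 17.6 CPM (-1.55, SE 0.18). The WNT inhibitor Wif1 was at 350 and 267 against 40.5 and 64.3 CPM (-2.42, SE 0.22). Trps1 (194 and 120 against 58.9 and 47.5 CPM), Bmp4 (57.5 and 53.2 against 25.6 and 29.4 CPM), the proteoglycan Sdc1 (118 and 86.0 against 34.8 and 45.7 CPM), Hey1, Smoc1 and the neuropeptide gene Gal fell too, and no groups overlapped. Tgfb2 (log2 fold change 1.40) and the lysophosphatidic acid enzyme Enpp2 (1.28) rose. Prdm1 (7.82 and 3.76 against 11.7 and 2.84 CPM), Fgf10, Inhba and Tbx18 had overlapping groups and did not pass.

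Of the WNT list, 5 of 31 fell and 2 rose. Beside this and the list counts that follow, 2.49% of all 12471 genes fell and 2.83% rose. The secreted WNT inhibitor Dkk1 was at 36.1 and 31.8 against 1.48 and 3.27 CPM (-3.62, SE 0.29), and Nkd1 (-1.27) and Fzd10 (-1.81) fell with Lef1 and Wif1. Rspo1 rose from 45.5 and 29.9 to 126 and 122 CPM (1.87, SE 0.18). Of 29 BMP and TGF-beta genes, 3 fell, the target Id1 (-1.87), the antagonist Nog (-1.14) and Bmp4, and 3 rose, Tgfb2, the antagonist Grem1 (2.04) and Tgfbi (1.96). In the FGF list, 1 of 16 fell, the target Etv4 (-1.69), a count that says little about the list. Beside these, 25 of 37 S phase and 25 of 50 G2/M genes fell, and 15 of 26 inflammatory genes and 7 of 20 immediate early genes rose. The summed immune markers in these dermal cells, outside the condensate cells, were at 29.4 and 50.7 CPM in control and at 123 and 478 CPM in MOF cKO. None of 8 immune markers was called (median 2.76), while 2 of 8 pericyte and 3 of 6 myocyte markers rose and 3 of 10 epithelial markers fell (median -0.85), among them Krt5, which the rule limits, at 160 and 83.4 against 24.1 and 20.4 CPM. How far these lists and the condensate genes depend on each other was not tested. At E15.5 the same test on all dermal cells called none of 16208 genes (0.0%), while 2460 passed 0.05 before adjustment and DESeq2 called 495. There Ptch1 was at 148 and 143 against 69.8 and 121 CPM (log2 fold change -0.64, adjusted p = 0.42).

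**Figure D4:**
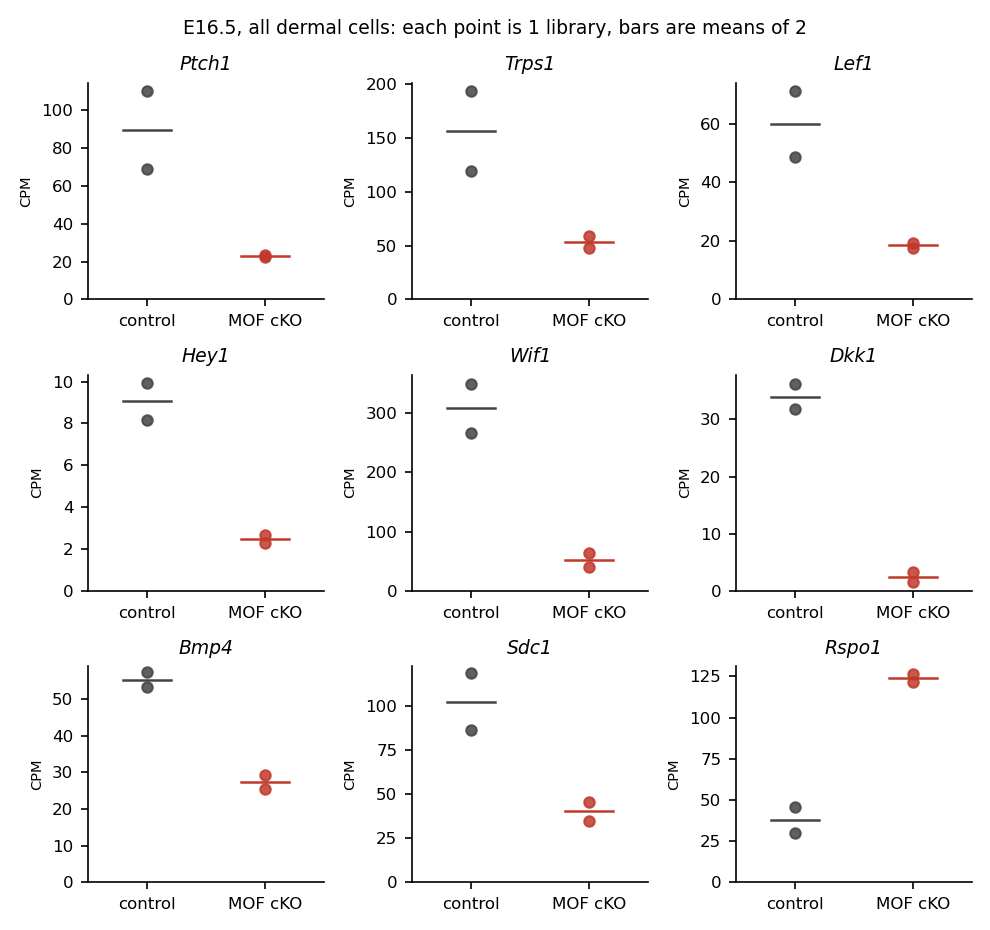
CPM of 9 genes in all dermal cells of the E16.5 libraries, with 1 point per library and the mean of 2 as a bar. All genes but Rspo1 are lower in both MOF cKO libraries than in both controls, and Rspo1 is higher.

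The E16.5 calls rest on few libraries. Without control replicate 2 the test called 37 genes in all, without MOF cKO replicate 1 177, and without MOF cKO replicate 2 207. Trps1, Bmp4, Hey1, Sdc1, Smoc1, Gal and Tgfb2 then lost their calls in 3 or 4 of the 4 cases, Ptch1 and Enpp2 in 2, and Lef1 and Wif1 in 1, with the same direction throughout.

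At E17.5 the condensate cells were more frequent in QPC cKO, with 457 of 4956 non-epithelial cells (9.22%, exact 95% interval 8.43 to 10.06) against 80 of 2284 (3.5%, 2.79 to 4.34) in the control. There was 1 library per group, so no test was possible, and the values compare 2 libraries. The keratin limit removed 64 otherwise qualifying cells from the control, 62 of them with 10 to 19 UMIs, and 15 from QPC cKO. With a limit of 20 UMIs the shares were 3.76% and 9.18%. The summed epithelial markers in the condensate cells were at 895 CPM in control and at 510 CPM in the QPC cKO library. The difference of 5.72 points stayed between 2.93 and 8.87 points under all other definitions tried, but the ratio of the shares, 2.63, was smaller in those without Sox2. It was 1.47 for both Sox18 and Foxd1 (9.94% against 14.6%), 1.71 for Prdm1 and Bmp4 (7.84% against 13.4%) and 1.18 for at least 8 condensate genes (43.0% against 50.7%).

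The counted condensate genes differed by under 2-fold between the E17.5 libraries. None of the 36 condensate and papilla genes with at least 50 UMIs differed 2-fold, beside 2.02% of 9611 genes that were at least 2-fold higher and 0.354% at least 2-fold lower in QPC cKO. Their median log2 ratio was -0.02, and that of all genes 0.05. The hedgehog list (14 genes) held no 2-fold difference either. In both lists a count of 0 is near the share over all genes and says little about the list. Prdm1 was at 277 CPM (exact Poisson interval 247 to 309) against 283 (270 to 295), Ptch1 at 647 (601 to 695) against 610 (592 to 629), and Cxcr4 at 192 (167 to 219) against 203 (192 to 214). Smaller differences with separate intervals were found in 14 of the 36, beside 8.67% of the 9611 genes, such as Bmp4 at 401 (365 to 440) against 325 (312 to 339), Enpp2 at 388 against 231 and Alpl, an enzyme of the mature papilla, at 76.2 against 106 CPM. The WNT modulators Sfrp2 (193 against 101 CPM) and Rspo1 (166 against 271 CPM) went opposite ways. Spred2, an inhibitor of FGF signalling, was the 1 gene of 13 in its list that was 2-fold lower, at 46.4 against 21.1 CPM.

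**Figure D5:**
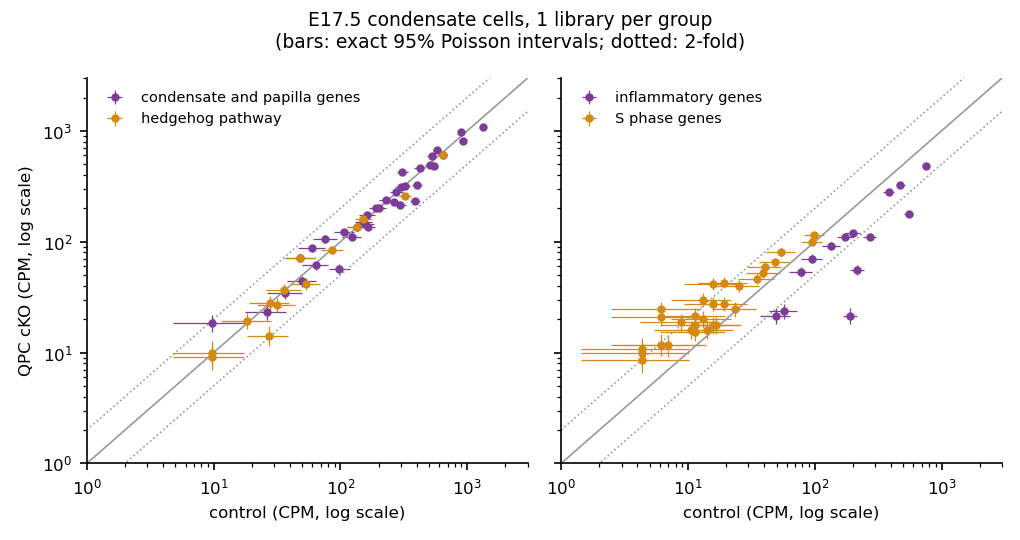
CPM in E17.5 condensate cells of the control (x axis) and QPC cKO (y axis) library on log scales, with exact 95% Poisson intervals, for the condensate and hedgehog lists (left) and the inflammatory and S phase lists (right). The lists on the left stay within the dotted 2-fold lines, while 6 inflammatory genes lie below them and 8 S phase genes above.

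Outside the condensate genes, inflammatory genes differed more. All 14 inflammatory genes with enough UMIs had separate intervals and lower levels in QPC cKO, beside 4.16% of the 9611 genes, 6 of them 2-fold or more. The chemokine Ccl2 was at 190 against 21.4 CPM (ratio 0.113, interval 0.0906 to 0.139), Cxcl1 at 216 against 55.5, and the interferon response factor Irf1 at 551 against 177 CPM. In the other dermal cells Ccl2 and Cxcl1 were lower as well (log2 ratios -2.52 and -2.44). Among immediate early genes, Atf3 and Nr4a3 were over 2-fold lower, while Jun was at 655 against 1169 CPM. Of 30 S phase genes, 8 were at least 2-fold higher, beside 2.02% of the 9611 genes, and 7 had separate intervals, beside 8.67%. Among the 8 were Mcm5 at 6.13 against 24.5 and Rrm2 at 15.8 against 41.6 CPM, which reached 50 UMIs only in QPC cKO. The condensate sum held 1141342 UMIs in control and 6823366 in QPC cKO, so a lower CPM met the filter in QPC cKO. The count of 8 therefore says little about the list. Of 48 G2/M genes, 2 were at least 2-fold higher (median log2 ratio 0.12). The cell cycle share was 0.325% against 0.386% in the condensate cells, and 0.492% against 0.730% in the other dermal cells.

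By fold, the largest rises with separate intervals were all in genes with 0 to 2 control UMIs. These genes met the filter on UMIs only through the QPC cKO library, where they were high. Their place at the top is thus partly set by the filter. Nim1k had 0 control UMIs and 56 in QPC cKO, at least 3.12-fold higher, and Sgo1, which protects chromatid cohesion, 0 and 54, at least 3.01-fold higher, both against a limit of 3 counts in the control library. The exact counting intervals of these ratios begin at 2.46 and 2.37. The homeobox gene Hoxa10 had 2 and 144 UMIs (ratio 12, counting interval 3.27 to 100), and in the other dermal cells it was at 1.89 against 23.9 CPM. Tnn, Matn4, Ptgds and Coch had 1 control UMI each. Among the genes lower in QPC cKO were the keratins Krt15 (117 against 33.0 CPM) and Krt1 (108 against 33.6 CPM), which moved alike in the other dermal cells (log2 ratios -1.76 and -1.43). Uqcrq itself was at 78.9 against 97.8 CPM in the condensate cells.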

How the data were processed

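The authors deposited UMI counts per gene and cell barcode, without normalization, made with Cell Ranger on mm10. The processing notes list versions 1.3.1 and 6.1.2. The E16.5 libraries list 27998 genes and the others 32285. The column of counts was used as deposited.

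Cells with over 1000 and under 6000 genes and under 10% mitochondrial UMIs were kept, the limits of the study's methods. Doublets were marked per library with Scrublet (scanpy 1.11.5) at a rate of 0.8% per 1000 barcodes and left in, except in an alternative. They took 0 to 43 condensate cells per library. Counts were summed per library and cell set, since cells are not replicates, and given as CPM of the sum. Tests used edgeR 4.0.16 (quasi-likelihood, TMM, filterByExpr, Benjamini-Hochberg adjustment) in R 4.3.3, and DESeq2 1.42.0 as an alternative. The difference in effect was fitted with a term per library. Shares were compared by exact permutation of genotype labels over samples. E17.5 ratios use a pseudocount of 1 CPM, at least 50 UMIs in either library and exact Poisson intervals, which cover counting error only. The fit was tested on simulated data. Coordinates are from GENCODE on GRCm38.

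Named genes were those of the condensate, hedgehog, BMP and TGF-beta, WNT and FGF lists, and per fit up to 10 rises and 10 falls past the threshold that did not overlap and reached 50 CPM. Where a fit called under 20 genes, all were named with the next by p. At E17.5 they were the 10 largest ratios each way with separate intervals. The members, lists and tests were chosen with earlier results of these data known. Not analysed were the study's other data types.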

Additional observations from a re-analysis of the deposited data

Results flagged for a closer look

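Results are listed here because the MOF cKO effect at E15.5 differed between condensate cells and other dermal cells by edgeR's quasi-likelihood test of that difference, which called 56 genes. Each value is the log2 effect in condensate cells minus that in other dermal cells. The rule holds only the condensate cells to its markers. Foxd1 was detected in 15.3% and 14.2% of the E15.5 control dermal cells, against 6.13% and 10.4% in MOF cKO. For genes that go with these markers, the test cannot tell an effect in the cells from this choice of cells. Apart from the genes of the rule (Foxd1 and Sox18), among genes of at least 50 CPM whose ratios did not overlap between the groups, those with the highest values were Nppc (2.14), Fgd5 (1.44), Lepr (1.14), Aqp1 (1.10), Pdlim3 (1.09), Smoc1 (0.99), Slc26a7 (0.93), Itih5 (0.91) and Adamts18 (0.90). Those with the lowest were Rgs5 (-3.46), Rspo1 (-1.05), Col11a1 (-0.88), Gfra1 (-0.79), Csrp2 (-0.79), Nes (-0.79), Myl9 (-0.67), Zfhx4 (-0.63), Apod (-0.63) and Mme (-0.60). With 1 library left out, Gfra1 and Myl9 lost their call in 3 of 4 cases (Myl9 at -0.36 without MOF cKO replicate 5), and Slc26a7, Adamts18, Nes, Zfhx4 and Mme in 2. Nes was at -0.45 without control replicate 2, Zfhx4 at -0.44 without control replicate 3 and -0.37 without MOF cKO replicate 6, and Mme at -0.27 without control replicate 2. Nppc (0.91), Col11a1 (-0.65) and Apod (-0.29) lost theirs without control replicate 3, and Pdlim3 (0.75) without control replicate 2. Fgd5, Lepr, Aqp1, Smoc1, Itih5, Rgs5, Rspo1 and Csrp2 kept theirs in all 4.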

How the results depend on the processing

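Alternatives were run for part of the named genes. These were the genes called in E15.5 condensate cells, the largest differences in effect, the called condensate and papilla genes of E16.5 dermal cells and the largest E17.5 ratios. No fold change of these genes and no difference in share changed sign under any alternative. Of the values of these genes, 257 kept their side of the threshold and 59 lost their call. Other named genes were not run, among them Ptch1, Gli1 and Trps1 in the test of the difference, Dkk1 and Rspo1 at E16.5 and Prdm1 in E15.5 condensate cells. The E17.5 difference in share was 4.67 points with at least 2 Sox2 UMIs, 3.78 with both second markers, 2.93 with 40 collagen UMIs, 6.48 under 5% mitochondrial UMIs, 5.98 of all kept cells, 8.87 of dermal cells and 4.26 at equal depth. With definitions chosen after seeing the data it was 4.63 (Sox18 and Foxd1 without Sox2), 5.54 (Prdm1 and Bmp4), 7.57 (no collagen limit) and 7.62 (at least 8 condensate genes). The E15.5 count in condensate cells of 7 became 58 without the filter on low counts, 2 with at least 2 Sox2 UMIs, and 22 to 77 with a replicate left out (22 without control replicate 2, 33 without MOF cKO replicate 5, 77 without either of the others). The count over both stages of 4 became 39 without the filter, 1 by DESeq2, 1 without doublets, and 5 to 25 with a replicate left out. The count of differing effects ranged from 40 to 149, and its balance turned to 28 higher and 38 lower with DESeq2 size factors. Over all dermal cells, 0 calls at E15.5 became 495 by DESeq2 and 0 to 220 with a replicate left out, 220 of them without MOF cKO replicate 6. The 664 calls at E16.5 became 37 to 544, with 237 higher and 307 lower without control replicate 1. That E16.5 range covers only the fits with a replicate left out. By DESeq2 the E16.5 count was 916 (543 higher and 373 lower), and with plain library sizes it was 830. Where a replicate was left out, the lone sample was assumed to vary like the other group. The cause of these shifts was not tested.

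With the replicate number as a block, the E16.5 difference in share was -0.97 points (exact permutation p = 0.5, the smallest possible), and the E16.5 dermal count was 406 (276 higher and 130 lower). Equal numbers did not deviate together (r = -0.03 over 7775 genes) and share only a number. The fits over condensate cells at E16.5, the interaction of stage and genotype and the cell cycle comparison at E16.5 were not run, because both MOF cKO libraries hold no condensate cell. The E16.5 share rests on 11 and 13 condensate cells of the controls.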

Other observations

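Placode genes were followed in the keratin-positive cells of the same libraries, as values with no test. Shh, the hedgehog ligand of the placode, was at 15.4 and 10.5 CPM in the E15.5 controls and at 2.51 and 6.30 CPM in MOF cKO replicates 5 and 6. At E16.5 it was at 5.97 and 9.63 CPM in control and had no UMI in MOF cKO, where the libraries held 30 and 39 keratin-positive cells against 266 and 512. At E17.5 it was at 21.1 CPM in control and 63.3 CPM in QPC cKO. Fgf20, the placode FGF, was at 11.5 and 8.0 against 3.22 and 8.12 CPM at E15.5, and at 6.78 against 21.2 CPM at E17.5. The keratin-positive sets of E17.5, 3069 cells in control and 1162 in QPC cKO, were unlike. Kept cells under 10 and under 20 keratin UMIs numbered 2284 and 3780 in control, against 4956 and 5120 in QPC cKO. More of the control set thus lay just above the limit. The part of such cells in these E17.5 values was not tested. The placode WNT inhibitor Dkk4 was at 21.3 and 23.3 against 2.11 and 19.3 CPM at E15.5. All 15 placode genes followed, also Pdgfa (248 against 391 CPM) and Wnt4 (151 against 289 CPM), were lower in MOF cKO replicate 5 than in replicate 6. The lower level was thus not particular to Shh, Fgf20 and Dkk4. Replicate 5 also had the lower share of condensate cells, and the study describes replicate 6 as mosaic. These are 2 libraries, and a relation was not tested.

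Between stages, for which the labels name different versions of the library protocol, the papilla genes Corin and Alpl stood apart. Corin was at 13.4 and 14.2 CPM in the E15.5 control condensate cells and at 123 CPM in the E17.5 control. Alpl was at 13.9 and 15 CPM at E15.5 and at 76.2 CPM at E17.5, while Crabp1 was at 682 and 818 CPM at E15.5 and at 98.1 CPM at E17.5.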
